A study of Mus musculus with 6 samples.

Results

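The miR-7 and miR-671 miRNAs were followed here as they sit in Argonaute in the mouse brain. The set held the 6 strands of these families listed for the circuit around the circular RNA Cdr1as: mmu-miR-7a-5p, mmu-miR-7b-5p, mmu-miR-7a-1-3p, mmu-miR-7b-3p, mmu-miR-671-5p and mmu-miR-671-3p, written without the species prefix from here on. They were taken by name, as every read sequence whose miRNA annotation equalled one of them, and they are 6 of the 1101 miRNA names in the data and 317 read sequences in all. Small RNAs bound to Ago1-4 were pulled down with a GW182 peptide (Ago-RP-Seq) from combined cortex and hippocampus of BL6 mice (C57BL/6J males in the study's methods) aged 2 months (2M, 3 libraries) or 18 months (18M, 3 libraries), and the labels give no allele or treatment for either group. The labels do not say that the 3 libraries of an age came from separate animals, so p-values measure the spread between these libraries. Values are RPM, the reads of a sequence scaled to a common library total, from 19272046 to 25080484 reads per library, so that 3 reads, the lowest level taken as detected, correspond to between 0.120 and 0.156 RPM. Neuronal miRNAs, with miR-124-3p among them, were abundant in every library: the 6 on the marker list summed to between 179617 and 227323 RPM.

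A miRNA is cut from a hairpin as a duplex of a 5p and a 3p strand, of which one, the guide, is usually kept by Argonaute while the other, the passenger, is lost. The guide finds its targets through its seed, the bases from position 2 onward. Below, the 5p strands are called guides, whichever strand was more abundant in these libraries. miR-7 is a conserved miRNA that is abundant in endocrine cells and in parts of the nervous system. In neurons it is bound by Cdr1as, a circular RNA packed with miR-7 sites, and is degraded through the long noncoding RNA Cyrano, which carries a site of extensive pairing to miR-7. miR-671-5p pairs almost fully with Cdr1as and directs its cleavage. Neither Cdr1as nor Cyrano was measured in these small RNA libraries.

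The mature RefSeq sequences are shown to make clear which strands share a seed. Capitals mark positions 2 to 8.
miR-7a-5p: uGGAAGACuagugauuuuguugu
miR-7b-5p: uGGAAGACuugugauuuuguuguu
miR-671-5p: aGGAAGCCcuggaggggcuggag
miR-671-3p: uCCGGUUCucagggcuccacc
miR-7a-1-3p: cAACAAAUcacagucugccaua
miR-7b-3p: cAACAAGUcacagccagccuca
miR-7a-2-3p: cAACAAGUcccagucugccaca

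miR-7a-5p and miR-7b-5p had the same seed and differed at 1 of 23 shared positions, A10U, counted from 1 at the 5′ end with the miR-7a base first. Their 6-base seed (positions 2 to 7) also matched that of miR-671-5p at 5 of 6 bases. miR-7a-5p is encoded by both Mir7-1 and Mir7-2, so its reads cannot be assigned to a gene, while its 3p strands differ between the genes: miR-7a-1-3p comes from Mir7-1 and miR-7a-2-3p, which is not among the 6 and is given for comparison, from Mir7-2. In GRCm38, Mir7-1 (chr13:58392779-58392886, minus strand) lies in an intron of Hnrnpk, the gene of an RNA-binding protein, on the same strand. Mir7-2 (chr7:78888277-78888373, plus strand) and Mir7b (chr17:56242988-56243098, plus strand) overlap no other annotated gene. Mir671 (chr5:24592114-24592211, plus strand) overlaps an exon of Chpf2, a chondroitin sulfate synthesis gene, on the same strand and an exon of Smarcd3 on the opposite strand.

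The reference transcripts were searched for miR-7 sites. The 6-base match to the miR-7-5p seed, TCTTCC, occurred 80 times on the strand opposite to the 1554-nt Cdr1 transcript, the strand of Cdr1as, and 0 times on the Cdr1 strand itself. That is 51.5 matches per 1000 nt, against a median of 0.639 on the opposite strand of the 68537 transcripts of at least 1000 nt, 77.8% of which held at least 1 match. No other of these transcripts was as dense. The Cyrano transcript (1700020I14Rik, 8300 nt) held 11 matches, 1.33 per 1000 nt, and 69.3% of transcripts held at least 1 on their own strand. The median on that strand was 0.451 per 1000 nt, and 5454 of the 68537 transcripts, Cyrano included, were at least as dense as Cyrano. One of the 11 lay in the window closest to a full complement of miR-7, at chr2:119602137-119602161 (GRCm38, plus strand) in the last of 3 exons, 3 edits from the complement of miR-7a-5p and, with 1 more base at its start, 2 edits from that of miR-7b-5p. The strand opposite to Cdr1 was searched for miR-671-5p as well: the closest window, 1 of 2 equally close alignments, was 7 edits from the full complement and had no match to positions 2 to 8. The Cdr1 transcript is part of the circle, and the rest of Cdr1as was not analysed here. In the Cyrano window, capitals mark the pairing to positions 2 to 8.
Cyrano site: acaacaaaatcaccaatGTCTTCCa

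Together the 6 strands made up little of the Argonaute-bound pool, between 0.0752% and 0.0846% of reads in 5 libraries and 0.262% in 2M replicate 1. The level of miR-7a-5p reached 1397 RPM in 2M replicate 1, with 253.8 and 314 RPM in the other 2M libraries and 281, 267 and 265 RPM at 18M. miR-7b-5p was at 821, 144 and 129 RPM at 2M and at 131, 135 and 118 RPM at 18M. For both 5p strands 5 libraries were close to each other and 2M replicate 1 was high, so that the groups overlapped.

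The other strands did not follow. miR-7a-1-3p was at 343, 305 and 359.6 RPM at 2M and at 366, 311 and 406 RPM at 18M. miR-671-5p, the strand that pairs with Cdr1as, was at 32.7, 31.3 and 22.9 RPM at 2M and at 29.5, 21.3 and 33.8 RPM at 18M. miR-671-3p was at 12.1, 13.5 and 14.3 RPM at 2M and at 10.5, 14.6 and 14.1 RPM at 18M. In each of these, 2M replicate 1 lay inside the range of the other libraries. miR-7b-3p was the scarcest, at 9.86, 5.34 and 6.53 RPM at 2M and 6.12, 4.95 and 7.35 RPM at 18M. It is highest in 2M replicate 1, but by 1.34-fold over the next library.

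**Figure D1:**
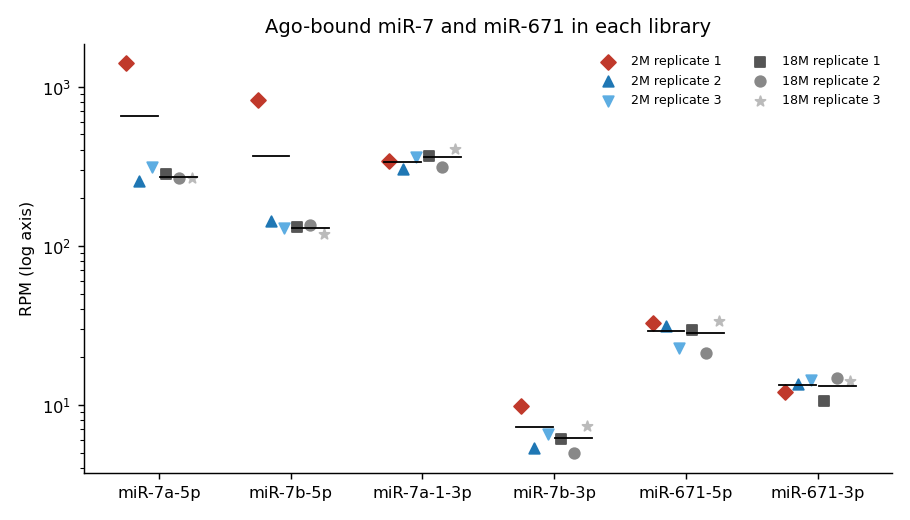
RPM of the 6 strands (log axis) in each of the 6 libraries, with a black line at the mean of each age. In 2M replicate 1, miR-7a-5p (1397 RPM) and miR-7b-5p (821 RPM) stand above the other 5 libraries, while the miR-7a-1-3p, miR-671-5p and miR-671-3p points of that library fall among the others.

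2M replicate 1 stood apart in few miRNAs, and both miR-7 guides were among them. Of 474 miRNAs with a mean of at least 10 RPM, 3 were more than 4-fold above every other library there: miR-375-3p (26.6-fold), miR-7b-5p (5.71-fold) and miR-7a-5p (4.46-fold). No further miRNA passed 2-fold, and the next was miR-7a-2-3p at 1.45-fold. In the same count 2M replicate 2 had 3 miRNAs more than 2-fold above every other library, 1 of them more than 4-fold (miR-10b-5p, 4.64-fold). 18M replicate 2 had 6 miRNAs more than 2-fold below every other library. miR-375-3p, a miRNA of endocrine cells, had 1124 RPM in 2M replicate 1, whereas the other libraries ranged from 31.0 to 42.2 RPM. On the pituitary and endocrine list, set up without miR-7, it stood alone: miR-141-3p and miR-200c-3p were at 4080 and 2484 RPM in 2M replicate 1, within the ranges of 3450 to 5175 and 1529 to 2853 RPM of the other libraries. The summed level of that list was 7687 RPM in 2M replicate 1 and 5012 to 7924 RPM elsewhere. The part of endocrine tissue in the miR-7 level of this library was not tested.

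The miR-7 guides of 2M replicate 1 were also shorter. The mean length of miR-7a-5p was 22.7 nt in that library and between 23.2 and 23.3 nt in the others, and for miR-7b-5p it was 22.6 nt against 23.2 to 23.3 nt. Differences of -0.65 nt for miR-7b-5p and -0.59 nt for miR-7a-5p from the mean of the other 5 libraries were the largest and second largest shortenings of the 474 miRNAs. miR-375-3p differed by -0.12 nt, the 20th largest.

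**Figure D2:**
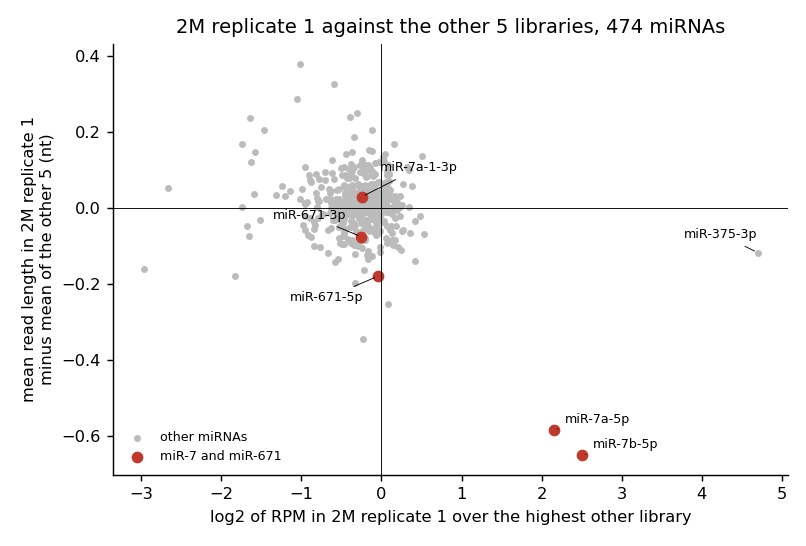
Each point is 1 of 474 miRNAs, with the log2 ratio of its RPM in 2M replicate 1 to the highest other library on the x axis and the mean read length in 2M replicate 1 minus that of the other 5 libraries (nt) on the y axis. miR-7a-5p and miR-7b-5p lie alone at the lower right, at -0.59 and -0.65 nt, and miR-375-3p is far to the right at -0.12 nt.

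The reads show at which end the lengths differed. The 3 most abundant miR-7a-5p reads start at the same base and differ in their 3′ end, and they are printed to show that the seed, in capitals, is unaffected.
miR-7a-5p, 22 nt: tGGAAGACtagtgattttgttg
miR-7a-5p, 23 nt: tGGAAGACtagtgattttgttgt
miR-7a-5p, 24 nt: tGGAAGACtagtgattttgttgtt

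The 24-nt read extends 1 base past the RefSeq end and matches the hairpin. Its level was 262 RPM in 2M replicate 1, against 110 to 135 RPM elsewhere, a ratio to the highest other library of 1.94. The 23-nt read was at 545 RPM against 70.9 to 113 RPM (ratio 4.82), and the 22-nt read at 360.2 RPM against 33.8 to 43.9 RPM (ratio 8.21). Among these 3 reads the excess was larger for the shorter ones. Over all miR-7a-5p reads of a length the ratio was 11.2 at 21 nt, 8.43 at 22 nt, 4.87 at 23 nt and 1.95 at 24 nt, and for miR-7b-5p it was 19.0, 11.6, 5.71 and 2.27 at the same lengths.

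As shares, 24-nt reads were 19.3% of miR-7a-5p in 2M replicate 1 (95% Wilson interval 18.9 to 19.8, counting error only) and 42.1% to 50.0% in the other libraries, where the lowest interval began at 40.9%. For miR-7b-5p they were 19.2% (18.6 to 19.7) and 39.6% to 48.2%. Reads of 22 nt had the larger shares there, 27.6% of miR-7a-5p against 12.4% to 16.3% and 27.9% of miR-7b-5p against 11.0% to 14.3%. The length profile of miR-7a-1-3p from the same library was not shifted: its mean of 21.66 nt lay within the range of 21.58 to 21.66 nt of the other libraries.

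**Figure D3:**
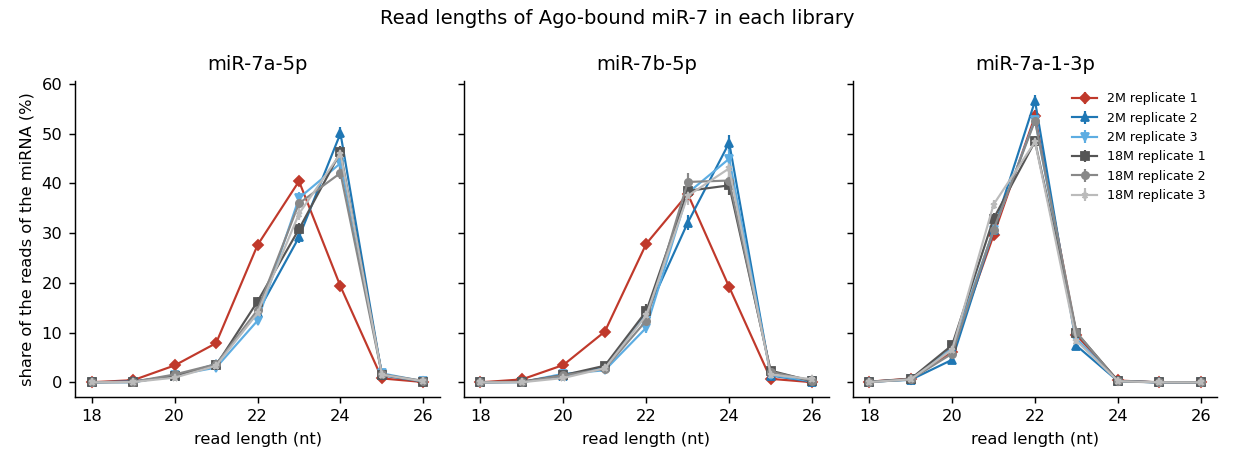
Share of reads (%) by read length (nt) for miR-7a-5p, miR-7b-5p and miR-7a-1-3p, 1 line per library, with 95% Wilson intervals as bars. In 2M replicate 1 the 5p strands peak at 23 nt, with 19.3% and 19.2% of reads at 24 nt, whereas the miR-7a-1-3p profiles of all 6 libraries lie together.

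Few miR-7-5p reads ended in bases that differ from the hairpin. A T added to a 22-nt or 23-nt miR-7-5p read matches the next hairpin base. Such a T was counted as templated, so these tail shares are lower bounds for added bases. Reads with a 3′ tail that the hairpin does not explain were between 2.05% and 2.91% of miR-7a-5p and between 2.47% and 3.71% of miR-7b-5p. A tail of A on an end shorter than the RefSeq end was 1.72% of miR-7a-5p in 2M replicate 1 and 0.240% to 0.559% elsewhere, and 2.07% of miR-7b-5p against 0.553% to 1.10%. On the other tested strands tails took 11.7% to 14.8% of miR-7a-1-3p, 15.1% to 23.3% of miR-671-5p and 17.7% to 29.1% of miR-671-3p reads. Which added bases can be seen depends on the hairpin sequence, so the difference from miR-7-5p cannot be read as a difference in tailing. On miR-671-5p, tails of T alone (8.03% to 13.2%) exceeded tails of A alone (4.21% to 6.17%) in all 6 libraries.

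The 5′ end, which sets the seed, was steady for the guides. The lowest share of reads that began at the RefSeq start in any library was 98.3% for miR-7a-5p, 98.5% for miR-7b-5p and 99.0% for miR-671-5p. miR-7a-1-3p was the exception, with 80.5% to 82.8%, with reads that began 1 base later, and so carried another seed, among the rest. Its commonest read and the commonest of these shifted reads show the change.
miR-7a-1-3p, 22 nt: cAACAAATcacagtctgccata
miR-7a-1-3p, 21 nt: aACAAATCacagtctgccata

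The shifted read was at 28.2 to 33.8 RPM in every library. In the 3 2M libraries 17.3% to 19.9% of miR-7a-1-3p reads had another seed, and at 18M 18.1% to 19.5%.

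Seeds were graded by the authors with 6mer seed viability, the viability of cell lines transfected with an siRNA of that seed, where a low value means a toxic seed. The median over the 4032 seeds in the data was 63.9%. The miR-671-5p seed GGAAGC had a viability of 11.4%, and 82 seeds (2.03%) were lower. The miR-7-5p seed GGAAGA, which differs from it in its last base, had 50.9%. The seeds of the 3p strands were higher, at 66.9% for miR-671-3p (CCGGUU), 71.3% for miR-7b-3p (AACAAG) and 76.1% for miR-7a-1-3p (AACAAA). Of all Argonaute-bound reads with the seed GGAAGA, 98.4% were miR-7, and of those with GGAAGC 84.9% were miR-671-5p, whereas miR-7a-1-3p supplied 21.6% of AACAAA reads.

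The strands of each hairpin were unequal, and not in the same way. miR-7b-5p exceeded miR-7b-3p in every library, by 83.2-fold in 2M replicate 1 and by 16.1- to 27.3-fold in the others. miR-671-5p exceeded miR-671-3p by 1.45- to 2.80-fold, also in all 6 libraries. The mean log2 ratios were 4.77 ± 0.84 (SD, n = 6) for miR-7b and 1.10 ± 0.40 (SD, n = 6) for miR-671, and both differed from 0 (exact two-sided sign-flip permutation test, p = 0.0313, the smallest p that 6 libraries allow, and 0.0391 adjusted over 5 ratios).

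miR-7a was different. In 5 of 6 libraries its 3p strands, miR-7a-1-3p and miR-7a-2-3p together, outnumbered miR-7a-5p, with a 5p to 3p ratio of 0.577 to 0.731, while in 2M replicate 1 the ratio was 3.16. The mean log2 ratio was -0.19 ± 0.91 (SD, n = 6) and did not differ from 0 by the same test (p = 0.656, permutation). Without 2M replicate 1 it was -0.56 (exact permutation test, p = 0.0625, the smallest p that 5 libraries allow). Counting only reads with the main seed of each strand, the mean over 6 libraries was 0.05. The 3p strand of Mir7-1 exceeded that of Mir7-2 in every library: miR-7a-2-3p stood at 0.129 to 0.292 of miR-7a-1-3p, a mean log2 ratio of -2.47 ± 0.40 (SD, n = 6; exact permutation test, p = 0.0313). This ratio was added after seeing the data, and it is 1 of the 5 ratios over which p was adjusted.

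miR-7a-5p was the larger of the miR-7 guides, at 63.0% to 70.8% of their sum, with a mean log2 ratio to miR-7b-5p of 1.02 ± 0.20 (SD, n = 6; exact sign-flip permutation test, p = 0.0313). That ratio was 0.77 in 2M replicate 1, just under the 0.82 to 1.28 of the others. Across the 6 libraries the miRNA with the pattern most like miR-7a-5p was miR-7b-5p, with a root mean square distance of 0.18 on the centred log2 scale, where the median miRNA was at 0.88. miR-205-5p (0.53, at 6.65 to 21.1 RPM) and miR-7a-2-3p (0.58) came next. The values were centred but not scaled, so this distance also depends on the size of a rise. miR-375-3p, 26.6-fold above every other library in 2M replicate 1, was not among the 3 nearest. For miR-671-5p the nearest were miR-199a-3p and miR-199b-3p, which share their reads, and miR-376b-5p (0.10 to 0.11), for miR-671-3p miR-127-3p, miR-323-5p and miR-455-3p (0.096 to 0.098), and for miR-7a-1-3p miR-30c-5p, miR-344c-3p and miR-30b-5p (0.050 to 0.065).

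**Figure D4:**
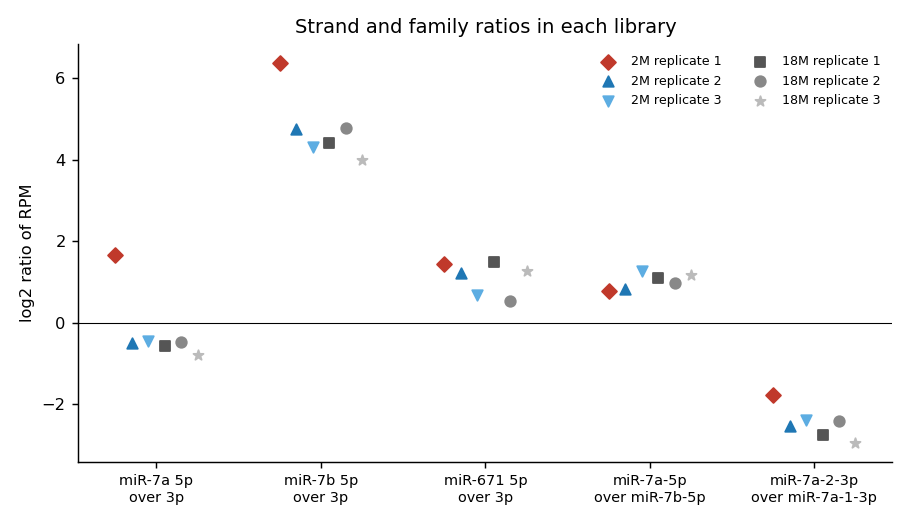
Log2 ratios of RPM in each library: 5p over 3p strands of miR-7a, miR-7b and miR-671, miR-7a-5p over miR-7b-5p, and miR-7a-2-3p over miR-7a-1-3p. The miR-7b and miR-671 ratios are above 0 in all 6 libraries, and the miR-7a strand ratio is above 0 in 2M replicate 1 alone.

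Age was the comparison that the study made with these libraries, as part of wider work on Alzheimer's disease and aging. It asked there whether the small RNAs held by Argonaute change in the older brain. Another set of young and old mice in the study was not used here. None of the 5 strands with a mean of at least 10 RPM passed the test between 18M and 2M, where 4.85% of the 474 miRNAs did (limma on log2(RPM + 1), Benjamini-Hochberg adjusted p under 0.05). That background changed when 1 library was left out. The 23 miRNAs called became 3, 0 and 0 without 2M replicates 1, 2 and 3 and 5, 15 and 2 without 18M replicates 1, 2 and 3. Each of these fits had 1 library fewer and so less power. Whether the calls rested on any single library cannot be told from these counts. By limma, 0 of the 5 fell under 0.05 before adjustment either. The count tests edgeR and DESeq2 on the recovered reads also called 0 of the 5. Before adjustment edgeR had 0 under 0.05 and DESeq2 had 1, miR-7a-5p, whose DESeq2 adjusted p was 0.209. None of the 5 had groups that did not overlap, which 24.9% of all miRNAs had. Of the 5 values, 1 was above 0 and 4 were below, with a median log2 fold change of -0.05 beside -0.07 over all 474.

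The mean of miR-7a-5p was 655 ± 644 RPM in the 3 young libraries and 271 ± 8.81 RPM in the 3 old ones (SD), a difference of -0.83 on the log2 scale with an SE of 0.61 (limma, adjusted p = 0.501). For miR-7b-5p the means were 365 ± 395 and 128 ± 8.90 RPM (SD, 3 libraries each), a difference of -0.95 on the log2 scale with an SE of 0.68 (limma, adjusted p = 0.478). Both values rested on 2M replicate 1: without it they were -0.06 ± 0.14 and -0.09 ± 0.12 (SE; limma adjusted p = 0.875 and 0.772). The seed GGAAGA, which pools both guides, gave -0.87 with an SE of 0.62 (limma, adjusted p = 0.571) among 1105 seeds, 0.905% of which passed, and -0.07 without that library. The 10 seeds called became 38 without 18M replicate 2 and 0 without any other library.

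The other strands gave values near 0. The log2 fold change was 0.10 ± 0.14 for miR-7a-1-3p, -0.05 ± 0.22 for miR-671-5p and -0.03 ± 0.17 for miR-671-3p (SE; limma adjusted p = 0.761, 0.923 and 0.926). The signs of the miR-671 values turned under other scalings, to 0.05 and 0.06 with median-of-ratios scaling, which puts the median miRNA near 0 instead of at -0.07. miR-7b-3p, under the 10 RPM limit, gave -0.18 ± 0.23 (SE; limma adjusted p = 0.697) when miRNAs of at least 1 RPM were tested. The groups did not overlap in the sum of the 4 microglial and immune miRNAs. It was 3398 to 3821 RPM at 2M and 2453 to 2992 RPM at 18M. Most of that sum was miR-150-5p, at 2852 to 3124 RPM at 2M and 2068 to 2431 RPM at 18M. The groups overlapped in miR-142a-3p, miR-142a-5p and miR-223-3p, and 24.9% of all single miRNAs had groups that did not overlap. The part of cell composition in these comparisons was not tested.

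At the level of single reads, 16 of the 317 sequences reached 10 RPM and held 88.1% of the RPM of the 6 strands. None passed (0.366% of 3281 read sequences did, 12 in all and 0 when any 1 library was left out), and none had an unadjusted p under 0.05. Their median log2 fold change was -0.58, against 0.02 for all reads tested, and the 9 miR-7a-5p and miR-7b-5p reads among them were each at least 1.94-fold higher in 2M replicate 1 than in any other library. The 7 miR-7a-1-3p reads were at 0.569 to 1.03 of the highest other library there.

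Ratios and read shapes were also set side by side by age, where 3 against 3 libraries cannot give an exact permutation p below 0.1. The log2 ratio of 5p to 3p strands differed by -0.01 for miR-671, -0.74 for miR-7b and -0.85 for miR-7a (18M minus 2M; exact two-sided permutation test, p = 1, 0.5 and 0.2). Without 2M replicate 1 the miR-7 differences were -0.13 and -0.14, and that of miR-671 was 0.15. The miR-7a-5p share of both guides averaged 65.9% ± 4.30 in the young and 67.9% ± 1.39 in the old libraries (SD, 3 each), and an exact permutation test gave p = 0.5.

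Of 20 isomiR measures, which were the mean length, the share of the main read, the share with another seed and the share with a tail for each of 5 strands, the ages did not overlap in 2. No measure could pass the threshold at this number of libraries. The main 22-nt read of miR-7a-1-3p was 44.4%, 46.2% and 43.8% of that strand at 2M and 39.4%, 41.5% and 39.5% at 18M (exact permutation test, p = 0.1, and 0.8 adjusted over the 20), with 15% of all miRNAs not overlapping in this measure. The size of this difference, -4.67 percentage points, ranked 103rd in size among the 474 miRNAs. Reads of miR-7b-5p with another seed were 1.47% to 1.60% at 2M and 1.66% to 2.21% at 18M (exact permutation test, p = 0.1, and 0.8 adjusted), where 13.9% of all miRNAs did not overlap. The mean length, in which 19% of all miRNAs did not overlap, overlapped in all 5 strands.

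Other miRNAs known to be degraded through an extensively paired target, as miR-7 is through Cyrano, were read beside it. The list held 8 miRNAs, with miR-7a-2-3p added as the 3p strand of Mir7-2 and not for a described decay target. Of the 8, 1 passed, lower at 18M, as did 4.43% of all miRNAs. It was miR-322-5p, which the Plagl1 and Lrrc58 transcripts target for decay, at 265, 306 and 279 RPM at 2M and 156, 96.1 and 141 RPM at 18M, which is -1.14 on the log2 scale with an SE of 0.19 (limma, adjusted p = 0.0314). Without 2M replicate 1 its value was -1.18 (adjusted p = 0.105), and leaving out any other library except 18M replicate 2 also raised the adjusted p above 0.05. miR-503-5p, from the same cluster, was at 14.9 to 19.6 RPM at 2M and 3.50 to 12.4 RPM at 18M (-1.06 on the log2 scale with an SE of 0.40, limma adjusted p = 0.235). miR-221-3p was at 6110 to 7952 RPM at 2M and 8945 to 12850 RPM at 18M (0.57 with an SE of 0.18, limma adjusted p = 0.153). The values for miR-29b-3p, miR-30b-5p, miR-30c-5p and miR-222-3p were 0.50, 0.09, 0.13 and 0.16, and that of miR-7a-2-3p was -0.37 (limma adjusted p = 0.428) and -0.13 without 2M replicate 1. Without 18M replicate 2, miR-29b-3p was at 0.84 (limma adjusted p = 0.0469) and miR-503-5p at -0.59 (adjusted p = 0.175). The median over the 8 was 0.11 and that over all miRNAs -0.07.

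**Figure D5:**
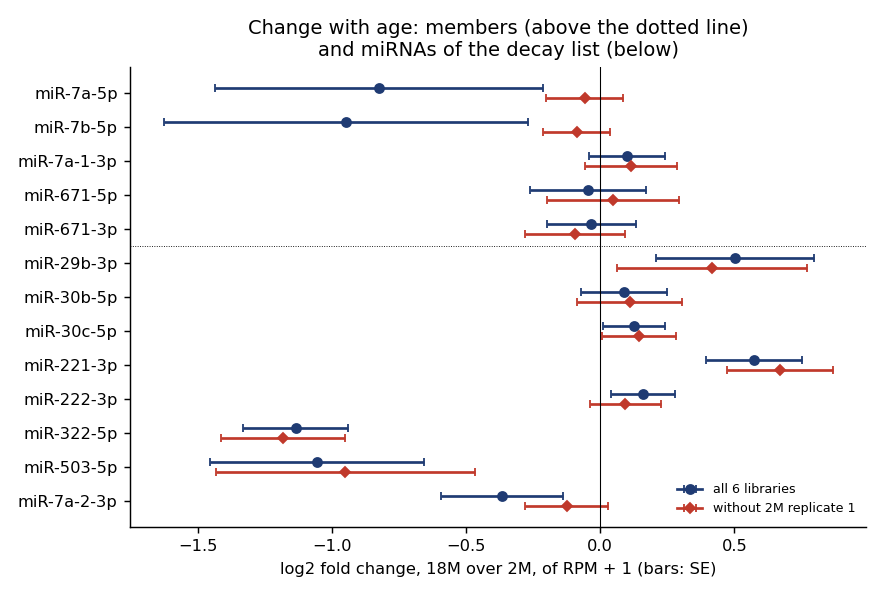
Log2 fold change (18M over 2M, on RPM + 1) with its SE, for 5 miR-7 and miR-671 strands above the dotted line and 8 miRNAs of the decay list below it, from all 6 libraries (circles) and without 2M replicate 1 (diamonds). The miR-7a-5p and miR-7b-5p values move from -0.83 and -0.95 to -0.06 and -0.09, and miR-322-5p lies at -1.14 and -1.18.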

How the data were processed

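The authors removed adapters (Trim Galore is named in the submitters' processing notes), joined identical reads into 1 table, dropped rare reads, matched reads to small RNAs with BLAST and scaled each library to a common total, so the deposited values are RPM per read sequence. Aligner settings and versions are not given in the sources used here. The deposited 6mer seed viability is a score of each seed (percent viability over 3 mouse cell lines). RPM were added up per miRNA name, read and seed. All values were whole multiples of 1 read (100% within 0.1 of a read), so reads were recovered for edgeR 4.0.16 and DESeq2 1.42.0. The age tests used limma 3.58.1 (R 4.3.3) with trend on log2(RPM + 1), at a mean of at least 10 RPM, and the fit was tested on simulated data. Ratios and shares used exact permutation tests. Reads were aligned to RefSeq hairpins from within 4 nt of the mature start. At least 17 nt had to match, and tails had at most 3 nt. Sequences are from RefSeq and GENCODE M21 transcripts (GRCm38). All 6 names and miR-7a-2-3p matched RefSeq. Named reads were the 3 with the highest mean RPM of each strand plus any that passed the age test. Likeness used the 3 nearest miRNAs. The strands, lists and tests were chosen with earlier results of these data known, and the ratio of miR-7a-2-3p to miR-7a-1-3p was added after seeing the data. Alternatives were other pseudocounts, filters, scalings, tools and read sets, a replicate block, and leaving out each library. Libraries with the same replicate number did not deviate together (r of -0.17, -0.22 and -0.10), so the numbers were not used as pairs.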

Additional observations from a re-analysis of the deposited data

How the results depend on the processing

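Over 28 results, 173 of 184 values from alternatives that kept all libraries had the direction and side of the threshold of the reported value. Part of this agreement was fixed in advance. By age, the permutation tests of ratios, shares and isomiR measures cannot give p below 0.1. Those results could therefore not cross the threshold of 0.05 under any alternative. Single-label reads left the levels of the miR-7 and miR-671 strands unchanged, because none of their read sequences had a shared label. None of the miR-7 and miR-671 strands or reads passed the age test under any alternative. Signs turned for small values: miR-671-5p gave 0.0462 with median-of-ratios scaling, 0.0335 with edgeR and 0.0460 with DESeq2, miR-671-3p gave 0.0564, 0.0631 and 0.0758, and the miR-7a strand ratio within libraries became 0.0531 with main-seed reads. The causes were not tested. With a replicate block the miRNAs called fell from 23 to 1 and miR-322-5p (-1.14) lost its call (adjusted p = 0.133), and it changed no other call given here. It was also lost at a mean of at least 100 RPM (adjusted p = 0.0662) and without a filter (0.0545), and miR-221-3p passed with DESeq2 (0.69). The count of 23 was 14 with edgeR, 46 with DESeq2, 14 with median-of-ratios scaling, 15 without trend or with single-label reads, 2 at 100 RPM and 3 without a filter, and it ranged from 0 to 15 when 1 library was left out.

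Leaving out each library in turn, the log2 fold change ranged from -1.29 to -0.06 for miR-7a-5p, -1.42 to -0.09 for miR-7b-5p, -1.31 to -0.07 for the miR-7 seed, -0.20 to 0.14 for miR-671-5p, -0.11 to 0.10 for miR-671-3p and -0.0371 to 0.191 for miR-30b-5p. It ranged from 0.28 to 0.84 for miR-29b-3p, -1.38 to -0.59 for miR-503-5p and -0.59 to -0.13 for miR-7a-2-3p. The miR-671 strand ratio by age ranged from -0.23 to 0.27. Within libraries the ratios ranged from 1.03 to 1.21 for miR-671, 4.45 to 4.93 for miR-7b and 0.97 to 1.07 for miR-7a-5p over miR-7b-5p, with p = 0.0625 in each exact permutation test, the smallest that 5 libraries allow.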
